A study of Mus musculus with 18 samples.

Results

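Matricellular and elastic fibre proteins of the lung were followed across irradiated and control mice of 3 inbred strains. The group was given by a list of 10 genes, namely Tnc, Thbs1, Thbs2, Ccn2, Sparc, Postn, Fn1, Vcan, Eln and Fbn1, and its members were the array probe sets whose platform annotation names 1 of these genes and no other. The rule itself uses no measured value, but the list was drawn up with earlier results of these data known. It found 24 of 45101 probe sets, which name 9 of the 10 genes, and Fbn1 was not analysed here. A probe set that names Thbs1 together with Pald1 was left out. Of the 24, 15 were bright enough to be kept, and through them 8 genes entered a fit of 12412 genes. The other 9 probe sets, among them all 3 of Thbs2 and 6 of the 8 of Vcan, stayed below the filter on dim signals.

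The study measured lung RNA on single-colour oligonucleotide arrays in irradiated mice, called sick in the sample titles, and in untreated controls of the strains A/J, C3H/HeJ and C57BL/6J, which the labels spell C57BL6/J, with 3 arrays in each of 6 groups. At 8 weeks of age the irradiated mice had received 18 Gy to the whole thorax, with the rest of the body behind 3 cm of lead that let 3% of the beam through. Irradiated lungs were taken when a mouse was moribund, at 30 to 32 weeks of age in A/J, 28 to 30 weeks in C57BL/6J and 20 to 22 weeks in C3H/HeJ, which is 22 to 24, 20 to 22 and 12 to 14 weeks after exposure. Control mice of every strain were 15 to 26 weeks old and received no radiation. Exposure, moribund state and time since exposure therefore cannot be told apart in any strain, nor can age in A/J and C57BL/6J, whose irradiated mice were all older than the controls. The RNA came from the homogenised right lung, a mixture of all its cell types, so more cells of a type and more RNA per cell cannot be told apart either. Per the labels' protocols the irradiated samples of a strain were separate mice. For the controls the labels mention 3 samples per strain, and p-values there may measure technical spread.

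Matricellular proteins are secreted into the extracellular matrix, where they change how cells attach, migrate and respond to growth factors rather than bearing load. Tenascin C (Tnc), the thrombospondins (Thbs1, Thbs2), connective tissue growth factor (Ccn2), osteonectin (Sparc) and periostin (Postn) belong to this class, and most are low in resting adult tissue and induced by injury. Fibronectin (Fn1) and versican (Vcan), a large proteoglycan that binds hyaluronan, form the provisional matrix of a wound. Elastic fibres give the lung its recoil: elastin (Eln) is laid down on microfibrils of fibrillin (Fbn1), cross-linked by lysyl oxidases and assembled early in life. C57BL/6J is known for lung fibrosis after thoracic irradiation, and the other strains more for alveolitis.

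Promoter sequences are shown for 4 genes that represent the different behaviours described below, so that a reader can see what precedes their start sites. Tnc, Sparc and Vcan were higher in irradiated lung of more than 1 strain, while Postn moved little. RefSeq's table for GRCm38.p6 held 8 entries for 6 of the listed genes, namely Tnc, Thbs2, Postn, Sparc, Vcan and Fbn1. Each line gives the 250 bases before a start site, 5′ to 3′ on the gene's strand, and capitals mark matches to the motifs named after them.
Tnc, second entry, chr4:64046937-64047186, minus strand: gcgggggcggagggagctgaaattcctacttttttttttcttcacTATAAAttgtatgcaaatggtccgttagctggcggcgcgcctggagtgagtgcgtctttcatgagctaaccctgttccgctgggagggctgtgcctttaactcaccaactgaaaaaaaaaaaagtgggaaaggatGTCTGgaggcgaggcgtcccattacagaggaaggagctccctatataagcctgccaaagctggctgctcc
Sparc, chr11:55420081-55420330, minus strand: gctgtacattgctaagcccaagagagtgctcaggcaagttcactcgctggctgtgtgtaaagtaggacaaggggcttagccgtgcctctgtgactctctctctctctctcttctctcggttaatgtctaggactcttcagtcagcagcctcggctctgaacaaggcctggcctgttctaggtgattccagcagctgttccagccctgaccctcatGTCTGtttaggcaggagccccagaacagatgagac
Vcan, chr13:89742513-89742762, minus strand: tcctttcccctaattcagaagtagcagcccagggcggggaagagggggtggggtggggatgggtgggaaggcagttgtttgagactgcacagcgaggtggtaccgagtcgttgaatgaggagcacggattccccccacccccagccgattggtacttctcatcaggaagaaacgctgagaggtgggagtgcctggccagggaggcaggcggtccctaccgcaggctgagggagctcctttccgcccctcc
Postn, second entry, chr3:54360857-54361106, plus strand: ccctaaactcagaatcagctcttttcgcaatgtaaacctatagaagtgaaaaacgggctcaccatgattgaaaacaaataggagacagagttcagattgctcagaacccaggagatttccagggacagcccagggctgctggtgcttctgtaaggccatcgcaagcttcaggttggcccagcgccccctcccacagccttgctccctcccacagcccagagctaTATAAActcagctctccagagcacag
The motifs searched, on both strands, were TATAAA (the TATA box), TGANTCA (AP-1), GGAATG (TEAD) and CAGAC (the SMAD box). In the Tnc window TATAAA lay 205 to 200 bases before the start and a SMAD box, read on the other strand as GTCTG, 70 to 66 bases before it. That window also reads tatataag nearer the start, which is not an exact TATAAA match and is therefore unmarked. In the Sparc window a SMAD box on the other strand lay 35 to 31 bases before the start. The Postn window had TATAAA at 26 to 21 bases, and the Vcan window had no match. None of the 8 entries of the listed genes matched the AP-1 or the TEAD motif. Of all 32851 windows of this length in the table, 12.4% held TATAAA, 6.75% the AP-1 motif, 12.6% the TEAD motif and 42.2% the SMAD box. These matches describe letters, and binding was not tested.

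Several arrays stood apart. The trimmed mean signal ranged from 46.5 to 176 between arrays, and values below are therefore quantile-normalized log2(signal + 7), called log2 signals, which compare arrays for 1 probe set and not probe sets with each other. Over all genes the median log2 fold change without scaling came to 0.56 for A/J, 0.06 for C57BL/6J and 0.61 for C3H/HeJ, against 0.09, -0.01 and 0.01 after quantile normalization. The actin signal at the 5′ end relative to the 3′ end, which falls as RNA degrades, was 0.413, 0.551 and 0.528 in irradiated A/J arrays 1 to 3, against 0.735 ± 0.006 (SD, n = 3) in A/J controls, and RNA quality and irradiation cannot be told apart in A/J. At 34 probe sets that separated C3H/HeJ from A/J in control arrays, irradiated C3H/HeJ array 3 lay 52.2% of the way from the A/J to the C3H/HeJ mean (median), while irradiated C3H/HeJ arrays 1 and 2 lay at 97.3% and 96.2%. That library is treated below as labelled, and C3H/HeJ results are given without it where a call changes. Mean log2 signals of 9 squamous epithelium genes were 7.71 in irradiated A/J array 3 and 8.10 and 8.12 in C57BL/6J control arrays 1 and 3, against at most 5.02 in the other arrays. Skeletal muscle genes were high in the same 3 arrays, at 7.26 to 7.45 against at most 5.57. All 18 arrays carried lung markers, with a mean of 11.96 to 12.19 over 6 alveolar epithelium genes.

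Irradiated A/J and C3H/HeJ lung had more RNA for nearly all of these matrix proteins, and in irradiated C57BL/6J lung 1 of them was called. Whether the strains' effects differed was tested separately, with results given further on. In A/J 7 of the 8 genes tested rose and none fell, where a call means a Benjamini-Hochberg adjusted p under 0.05 in limma, and 15.1% of all genes tested were called higher. In C3H/HeJ 7 of 8 rose, against 12.8% of all genes. In C57BL/6J Fn1 alone rose, so 1 of 8, against 2.99% of all genes, while 3 of 8 had an unadjusted p under 0.05. The 8 genes had a median log2 fold change of 1.09 (A/J), 0.47 (C57BL/6J) and 1.45 (C3H/HeJ), set beside 0.09, -0.01 and 0.01 for all genes. All 3 irradiated arrays lay above all 3 control arrays for 8 of 8 genes in A/J (25.2% of all genes), 3 of 8 in C57BL/6J (11.7%) and 7 of 8 in C3H/HeJ (21.4%). Without irradiated C3H/HeJ array 3 the count of calls in that strain was 6, with Eln lost. Without irradiated A/J array 1, the array with the lowest 5′ to 3′ ratios, it was 5 in A/J, with Postn and Vcan lost.

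**Figure D1:**
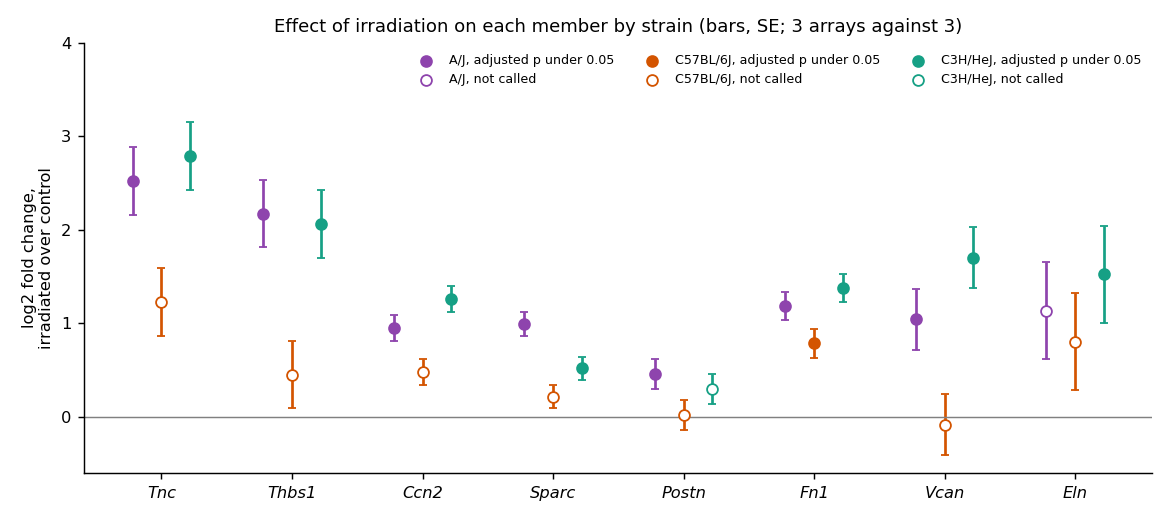
Log2 fold change of irradiated over control lung (vertical axis) for the 8 genes tested in each strain, with standard errors (3 arrays against 3). Filled points have an adjusted p under 0.05; the C57BL/6J point is the lowest of the 3 for each gene, and Fn1 is the one filled C57BL/6J point.

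Tenascin C, a hexameric glycoprotein of wound and tumour matrix, showed the largest fold changes of the group. In A/J, Tnc had log2 signals of 8.68, 7.69 and 7.59 in irradiated arrays 1 to 3, against 5.34, 5.65 and 5.40 in control arrays 1 to 3. In C3H/HeJ it had 8.31, 9.01 and 8.68 in irradiated arrays, against 6.01, 5.93 and 5.70 in controls. The groups lay far apart in both strains, with the lowest irradiated array well above the highest control. Tnc rose by 2.52 ± 0.36 (SE) on the log2 scale in A/J (5.74-fold, adjusted p = 1.61e-04) and by 2.78 ± 0.36 in C3H/HeJ (6.89-fold, adjusted p = 7.28e-05). Irradiated C57BL/6J arrays read 7.0, 5.74 and 5.26, against 4.38, 4.83 and 5.10 in controls. All 3 irradiated arrays were above the controls there too, but array 3 only narrowly, and the difference of 1.23 ± 0.36 missed the threshold (adjusted p = 0.0614). Without irradiated C57BL/6J array 1 the difference was 0.73 (adjusted p = 0.271), and without array 3 it was 1.60 and called (adjusted p = 0.0176). A second Tnc probe set, 1456344_at, was called in A/J (1.84) and in C3H/HeJ (2.31) and not in C57BL/6J (0.59). It passed the filter only through irradiated A/J array 1 and the 3 irradiated C3H/HeJ arrays, so these calls are no separate support. Since folds are computed after adding 7 to each signal, they are too small for dim genes.

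Thrombospondin 1, an adhesive glycoprotein of platelets and wound cells that can activate latent TGF-beta, behaved much like Tnc in A/J and C3H/HeJ. In A/J, Thbs1 had log2 signals of 10.38, 8.95 and 8.64 in irradiated arrays, against 6.96, 7.15 and 7.35 in controls. In C3H/HeJ it had 9.81, 9.35 and 9.46 in irradiated arrays, against 7.53, 7.49 and 7.42 in controls. Irradiated A/J array 1 was the highest array of all, yet the groups did not overlap in either strain. The rise was 2.17 ± 0.36 in A/J (4.50-fold, adjusted p = 5.21e-04) and 2.06 ± 0.36 in C3H/HeJ (4.17-fold, adjusted p = 7.75e-04). In C57BL/6J the irradiated arrays read 8.80, 8.05 and 7.59, against 7.31, 7.96 and 7.82 in controls. These overlapped, and the difference of 0.45 ± 0.36 was not called (adjusted p = 0.538). Its 95% interval ran from -0.31 to 1.21, which leaves room for a rise. Thbs1's other probe set, 1450377_at, gave 1.87 in A/J and 1.82 in C3H/HeJ, both called, and 0.53 in C57BL/6J.

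Thrombospondin 2, a related protein that restrains vessel growth, was too dim to be tested in the same fit. Its probe set 1422571_at had log2 signals of 4.87, 4.60 and 4.78 in irradiated A/J arrays, against 3.99, 3.55 and 3.72 in A/J controls. Its irradiated and control means were 4.41 ± 0.20 and 3.75 ± 0.39 in C57BL/6J, and 4.65 ± 0.19 and 4.32 ± 0.38 in C3H/HeJ (SD, n = 3 each). It lay under the overall median of 4.98 in every array. When every probe set was kept, Thbs2 was represented by 1450663_at. It differed by 0.53 ± 0.23 in A/J (adjusted p = 0.155), 0.10 in C57BL/6J (adjusted p = 0.898) and 0.43 in C3H/HeJ (adjusted p = 0.257), none of them called. Signals this dim show neither a rise nor its absence.

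Connective tissue growth factor, a secreted protein induced by TGF-beta and by mechanical tension, was higher in every irradiated array than in any control of its strain. In A/J, Ccn2 had log2 signals of 11.42, 11.40 and 11.30 in irradiated arrays, against 10.57, 10.18 and 10.51 in controls. In C3H/HeJ it had 11.49, 11.32 and 11.26 in irradiated arrays, against 10.30, 9.99 and 10.03 in controls. Irradiated lungs of both strains sat in a narrow band above every control. Ccn2 rose by 0.95 ± 0.14 in A/J (1.93-fold, adjusted p = 1.95e-04) and by 1.26 ± 0.14 in C3H/HeJ (2.39-fold, adjusted p = 2.10e-05). Irradiated C57BL/6J arrays read 10.83, 10.28 and 10.57, against 10.08, 10.15 and 9.999 in controls, again with no overlap. That difference of 0.48 ± 0.14 fell just outside the threshold (adjusted p = 0.0578), and it was called without irradiated C57BL/6J array 2 (0.62, adjusted p = 0.0275).

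Osteonectin, a collagen-binding calcium protein that helps procollagen mature outside the cell, was the one member whose irradiation effect differed between strains past the threshold, as described further on. In A/J, Sparc had log2 signals of 12.41, 12.29 and 12.22 in irradiated arrays, against 11.31, 11.31 and 11.33 in controls. In C3H/HeJ it had 11.91, 12.37 and 12.14 in irradiated arrays, against 11.76, 11.68 and 11.43 in controls. The A/J controls were almost identical to each other and lay far below the irradiated arrays, while in C3H/HeJ the gap was narrow. Sparc rose by 0.99 ± 0.13 in A/J (1.99-fold, adjusted p = 5.24e-05) and by 0.52 ± 0.13 in C3H/HeJ (1.43-fold, adjusted p = 0.00732). In C57BL/6J the irradiated arrays read 11.71, 11.62 and 11.35, against 11.33, 11.34 and 11.37 in controls. Irradiated array 3 lay among these controls, and the difference of 0.21 ± 0.13 was not called (adjusted p = 0.367).

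Periostin, a matricellular protein made by activated fibroblasts in several tissues, moved least. In A/J, Postn had log2 signals of 10.66, 10.26 and 10.13 in irradiated arrays, against 9.86, 9.88 and 9.94 in controls. The groups did not overlap, and Postn rose by 0.46 ± 0.16 (1.38-fold, adjusted p = 0.0484). This call rested on the margin: it was lost in 10 of 18 alternative settings, and without irradiated array 1 the difference was 0.30 (adjusted p = 0.202). In C3H/HeJ the irradiated arrays read 10.45, 10.65 and 10.22, against 10.23, 10.03 and 10.15 in controls, and the difference of 0.30 ± 0.16 was not called (adjusted p = 0.193). In C57BL/6J they read 9.88, 10.30 and 10.51, against 10.22, 10.14 and 10.27 in controls. Irradiated C57BL/6J array 1, the highest of its group for the other 7 genes, was the lowest of its group for this one, and the difference was 0.02 ± 0.16 (adjusted p = 0.968).

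Fibronectin, the adhesive glycoprotein on which a provisional matrix is built, was the one member called in every strain. In A/J, Fn1 had log2 signals of 11.62, 11.58 and 11.62 in irradiated arrays, against 10.35, 10.44 and 10.47 in controls. In C3H/HeJ it had 11.50, 11.51 and 11.50 in irradiated arrays, against 10.23, 10.18 and 9.97 in controls. Irradiated arrays of each of these strains agreed to within a few hundredths and stood clear of the controls. Fn1 rose by 1.18 ± 0.15 in A/J (2.27-fold, adjusted p = 5.30e-05) and by 1.38 ± 0.15 in C3H/HeJ (2.60-fold, adjusted p = 1.79e-05). In C57BL/6J the irradiated arrays read 10.88, 10.40 and 10.08, against 9.64, 9.54 and 9.83 in controls. They were more scattered but still did not overlap, and Fn1 rose by 0.78 ± 0.15 (1.72-fold, adjusted p = 0.00749). That call held with any single C57BL/6J array left out. It was lost in 4 of 18 alternative settings, among them without scaling (0.89, adjusted p = 0.332) and without the 3 arrays high in squamous genes (0.91, adjusted p = 0.161). Fn1's other probe set, 1437218_at, was called in A/J (1.32) and C3H/HeJ (1.93) and not in C57BL/6J (0.51, adjusted p = 0.337).

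Versican, the proteoglycan that links hyaluronan to cells and to other matrix proteins, was dim in control lung. In C3H/HeJ, Vcan had log2 signals of 6.34, 6.78 and 6.62 in irradiated arrays, against 4.45, 4.85 and 5.34 in controls. In A/J it had 6.28, 4.90 and 4.78 in irradiated arrays, against 4.20, 4.46 and 4.17 in controls. The C3H/HeJ groups were far apart, whereas in A/J array 1 stood well above the other irradiated arrays, which lay close to the controls. Vcan rose by 1.70 ± 0.33 in C3H/HeJ (3.26-fold, adjusted p = 0.00164) and by 1.04 ± 0.33 in A/J (2.06-fold, adjusted p = 0.0302). Without irradiated A/J array 1 the A/J difference was 0.56 and no longer called (adjusted p = 0.137). In C57BL/6J the irradiated arrays read 5.30, 5.16 and 4.58, against 5.44, 4.92 and 4.93 in controls, an overlap with a difference of -0.08 ± 0.33 (adjusted p = 0.922). Its interval ran from -0.78 to 0.61. The second kept probe set, 1421694_a_at, was called in C3H/HeJ (1.69) and not in A/J (0.85, adjusted p = 0.0932). It passed the filter through the 3 irradiated C3H/HeJ arrays alone, so its call there is no separate support for the rise.

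Elastin, the core protein of elastic fibres, was the most variable member. In C3H/HeJ, Eln had log2 signals of 9.07, 10.08 and 9.55 in irradiated arrays, against 8.10, 7.93 and 8.11 in controls. In A/J it had 9.21, 10.20 and 9.71 in irradiated arrays, against 8.52, 8.39 and 8.81 in controls. Irradiated arrays were above controls throughout both strains. Eln rose by 1.52 ± 0.52 in C3H/HeJ (2.88-fold, adjusted p = 0.0432), a call lost in 11 of 18 alternative settings, among them without irradiated array 3 (1.53, adjusted p = 0.0917). In A/J the difference of 1.13 ± 0.52 was not called (adjusted p = 0.126). Irradiated C57BL/6J arrays read 9.92, 6.93 and 7.65, against 7.48, 7.58 and 7.03 in controls. Array 1 alone was high there, and the difference of 0.80 ± 0.52 (adjusted p = 0.422) became -0.07 without it (adjusted p = 0.953). That array's spread enters the standard error shared by all strains.

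**Figure D2:**
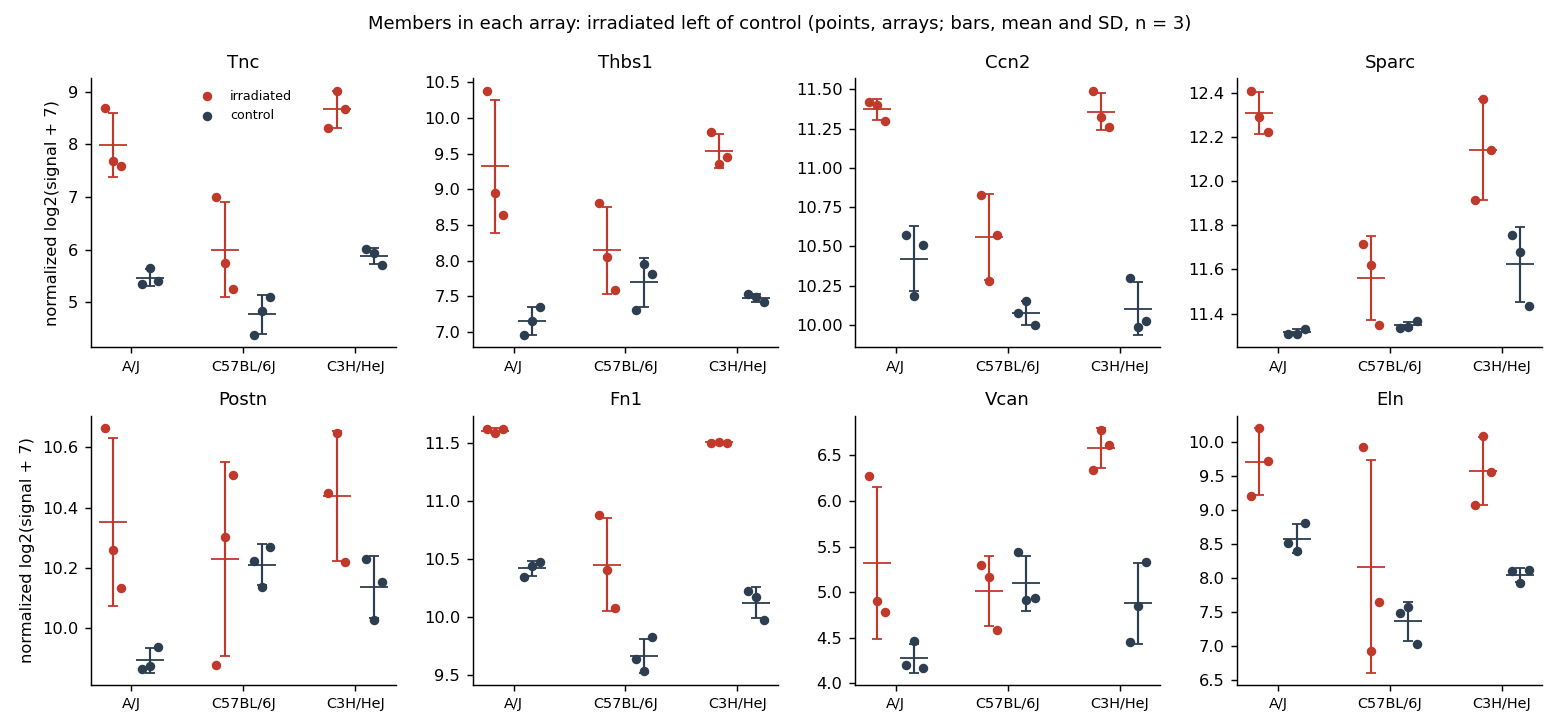
Quantile-normalized log2(signal + 7) of the 8 genes tested (vertical axes, scaled for each gene) in each array of the 3 strains, irradiated left of control, with mean and SD (n = 3). Irradiated and control points are apart for all 8 genes in A/J, for all but Postn in C3H/HeJ, and for Tnc, Ccn2 and Fn1 in C57BL/6J; C57BL/6J irradiated array 1 is the leftmost point of its group.

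Probe sets of 1 gene did not always tell the same story. Of the 15 kept probe sets, 10 were called higher in A/J (11.6% of all kept probe sets), 1 in C57BL/6J (1.73%) and 11 in C3H/HeJ (9.65%), in a fit adjusted over all probe sets, and none was called lower. The 15 include Tnc 1456344_at and Vcan 1421694_a_at, which passed the filter through irradiated arrays alone. The other elastin probe set, 1420854_at, had log2 signals of 5.19, 6.66 and 7.08 in irradiated A/J arrays, against 6.36, 6.27 and 6.30 in A/J controls. It thus showed no shift in A/J, with array 1 the lowest, although 1420855_at had all 3 irradiated arrays above the controls. In C3H/HeJ 1420854_at gave 6.86, 7.73 and 6.77 in irradiated arrays, against 5.92, 5.83 and 6.26 in controls, a difference of 1.12 that was not called (adjusted p = 0.159). For Sparc, 1416589_at rose by 0.94 in A/J and by 0.97 in C3H/HeJ, both called, whereas the dim 1458204_at gave 0.00 (A/J), 0.70 (C57BL/6J) and -0.32 (C3H/HeJ), none called. Where in the transcripts these probe sets lie was not given in the sources used here.

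**Figure D3:**
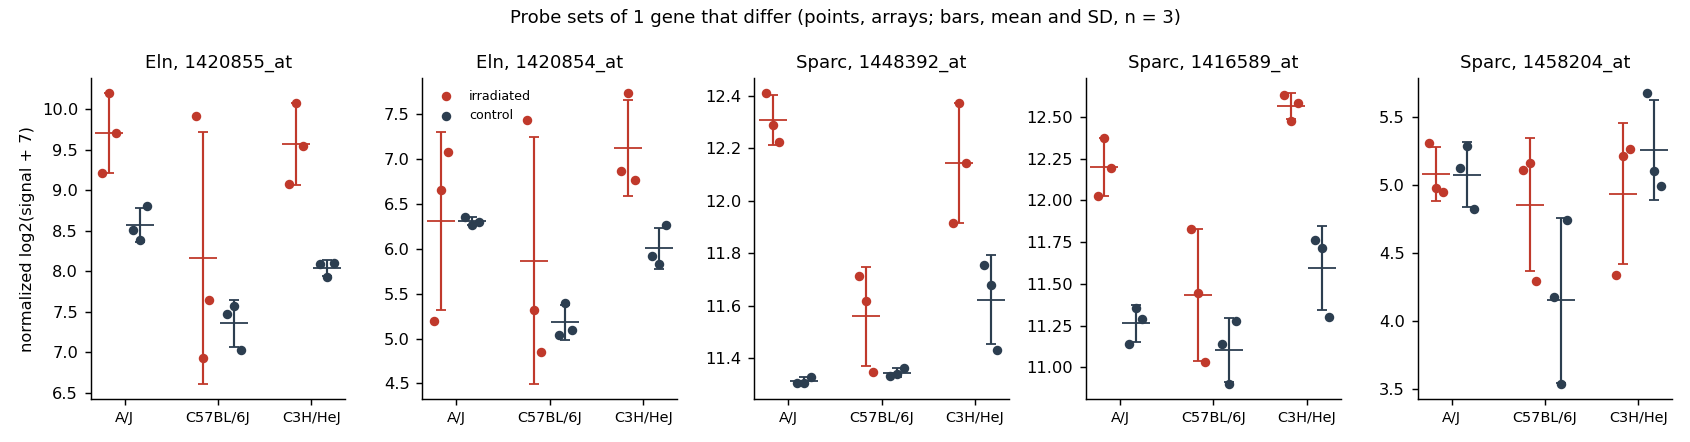
Quantile-normalized log2(signal + 7) (vertical axes, scaled for each probe set) of the kept probe sets of Eln and Sparc in each array, irradiated left of control within each strain, with mean and SD (n = 3). The A/J points of Eln 1420854_at overlap, those of Eln 1420855_at do not, and Sparc 1458204_at overlaps in all 3 strains.

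The study's design asks whether strains respond differently, and this was tested as the difference of irradiation effects. Irradiated C3H/HeJ lungs were taken 12 to 14 weeks after exposure, against 20 to 22 in C57BL/6J and 22 to 24 in A/J. Strain therefore cannot be told apart from time since exposure and age in these differences. The effect was lowest in C57BL/6J for 8 of 8 genes, as it was for 41.6% of all genes. Among the 851 genes called higher in both A/J and C3H/HeJ it was lowest in C57BL/6J for 88.6%, and the 6 members among them were 6 of 6, a share near that background. Of the 8 differences C57BL/6J minus A/J, that of Sparc was called, at -0.78 ± 0.18 (adjusted p = 0.0193), against 5.45% of all genes called in either direction. Thbs1 followed at -1.72 ± 0.51 (adjusted p = 0.0617) and Tnc at -1.29 ± 0.51 (adjusted p = 0.157), with intervals of -2.80 to -0.64 and -2.38 to -0.20. Of the differences C57BL/6J minus C3H/HeJ limma called 0 of 8, against 1.6% of all genes, while 5 had an unadjusted p under 0.05. The closest were Ccn2 at -0.77 ± 0.20 (adjusted p = 0.0607) and Vcan at -1.79 ± 0.46 (adjusted p = 0.0639). Between C3H/HeJ and A/J limma called 0 of 8, against 1.06% of all genes, and 1 had an unadjusted p under 0.05, Sparc at -0.47 (interval -0.85 to -0.10, adjusted p = 0.181). These 3 sets of differences share the effect of a strain, so they do not bear on each other independently.

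The Sparc difference depended on the probe set and on some settings. With 1416589_at it was -0.61 (adjusted p = 0.161), with 1458204_at it was 0.70 (adjusted p = 0.377), and with the mean of the 3 probe sets it was -0.23 (adjusted p = 0.622). Its call was also lost without scaling (-1.15, adjusted p = 0.309), without C57BL/6J control array 2 (-0.71, adjusted p = 0.135) and without the 3 arrays high in squamous genes (-0.80, adjusted p = 0.137).

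Irradiated C57BL/6J array 1 weighed on these comparisons. It was the highest of its group for 7 of the 8 genes, whereas it was the highest for 33.3% of all genes. Irradiated A/J array 1 was likewise the highest of its group for 6 of 8, against 45.9% of all genes. Without C57BL/6J array 1, 4 differences from A/J were called, namely Thbs1 (-2.05), Tnc (-1.80), Sparc (-0.86) and Fn1 (-0.61). Without it 4 differences from C3H/HeJ were called as well, namely Tnc (-2.06), Thbs1 (-1.94), Ccn2 (-0.90) and Fn1 (-0.81). The shares of 5.45% and 1.6% of all genes belong to the fit of all arrays. No share is given for the fit without this array, so these counts cannot be read as particular to the members. Among irradiated C57BL/6J arrays, array 1 also had the highest mean of the macrophage markers, at 9.27 against 8.59 and 8.23 in arrays 2 and 3, and of the fibroblast markers, at 9.39 against 9.16 and 9.11. Its endothelial mean was the lowest, at 8.52 against 9.07 and 9.01, and its smooth muscle and myofibroblast mean was 7.99 against 7.97 and 8.53. Irradiated A/J array 1 had the lowest macrophage mean of its group, at 8.78 against 9.78 and 9.75. It also had the lowest fibroblast mean, at 9.34 against 9.42 and 9.36. The same A/J array had the highest smooth muscle and myofibroblast mean, at 9.03 against 8.40 and 8.38, and the highest endothelial mean, at 9.37 against 9.04 and 8.95. The part of these cell types in the members' values was not tested.

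**Figure D4:**
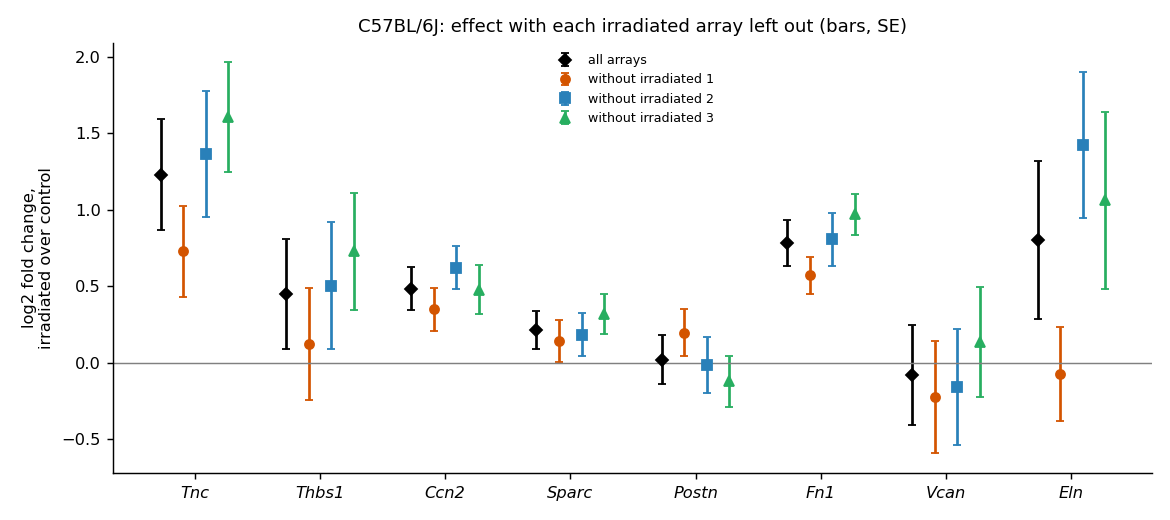
Log2 fold change of irradiated over control C57BL/6J lung (vertical axis) for the 8 genes tested, with all arrays and with each irradiated array left out, with standard errors. Leaving out array 1 lowers the value of 7 genes, takes Eln to -0.07 and raises Postn to 0.20.

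In control lung 1 difference between strains was called among these genes. Fn1 was lower in C57BL/6J, with log2 signals of 9.64, 9.54 and 9.83, than in A/J, with 10.35, 10.44 and 10.47. The groups were well apart, and the difference C57BL/6J minus A/J was -0.75 ± 0.15 (adjusted p = 0.00361), 1 of 8 genes called against 10.4% of all genes. It was not called without scaling (-0.85, adjusted p = 0.266), with the mean of the gene's probe sets (-0.57, adjusted p = 0.0645), or without the 3 arrays high in squamous genes, which leaves 1 C57BL/6J control (-0.88, adjusted p = 0.0522). Between C57BL/6J and C3H/HeJ controls limma called 0 of 8, against 10.8% of all genes, and 3 had an unadjusted p under 0.05. Tnc came nearest, with 4.38, 4.83 and 5.10 in C57BL/6J controls and 6.01, 5.93 and 5.70 in C3H/HeJ controls. These did not overlap, but the difference of -1.11 ± 0.36 was not called (adjusted p = 0.0617). Between C3H/HeJ and A/J controls it called 0 of 8, against 4.5% of all genes, and 2 had an unadjusted p under 0.05. Across all 6 groups the order of Fn1 means was 11.61 ± 0.02 in irradiated A/J, 11.51 ± 0.004 in irradiated C3H/HeJ, 10.45 ± 0.40 in irradiated C57BL/6J, 10.42 ± 0.07 in A/J controls, 10.13 ± 0.14 in C3H/HeJ controls and 9.67 ± 0.15 in C57BL/6J controls (SD, n = 3 each). Irradiated C57BL/6J lung thus had about the Fn1 level of A/J control lung, the difference between these neighbours being smaller than the spread of the irradiated C57BL/6J arrays.

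Other matricellular genes moved with the members in A/J and C3H/HeJ. Of 15 measured genes of 20 listed, 7 rose and 2 fell in A/J, 1 rose in C57BL/6J and 6 rose in C3H/HeJ. The shares of all genes called higher were 15.1%, 2.99% and 12.8%, and the shares called lower were 8.95%, 2.36% and 10.6%. The list had median log2 fold changes of 0.69 (A/J), -0.07 (C57BL/6J) and 0.38 (C3H/HeJ). Of the CCN family, to which Ccn2 belongs, Ccn5 rose by 1.36 ± 0.23 in A/J and 0.94 ± 0.23 in C3H/HeJ, and Ccn4, a target of WNT signalling, by 1.31 ± 0.22 and 1.27 ± 0.22. Ccn3 rose by 1.13 ± 0.36 in A/J (adjusted p = 0.0330), and Ccn1, an early response gene, by 0.82 ± 0.22 in C3H/HeJ (adjusted p = 0.0143). Tgfbi, an adhesive protein induced by TGF-beta, rose by 0.58 ± 0.16 in A/J (adjusted p = 0.0165) and by 1.96 ± 0.16 in C3H/HeJ (3.90-fold, adjusted p = 1.69e-06). Spon2, a secreted spondin that recruits leukocytes, fell in A/J (-0.87 ± 0.26, adjusted p = 0.0254), and Spon1 rose in C57BL/6J (0.48 ± 0.14, adjusted p = 0.0497). Without scaling 11 genes rose and 0 fell in A/J, 0 in C57BL/6J were called, and 9 rose and 0 fell in C3H/HeJ. Spon1 in C57BL/6J was called neither without scaling nor after median centring, and Spon2 in A/J not without scaling (-0.63, adjusted p = 0.159).

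Genes that build and cross-link elastic fibres moved in both directions. Of 19 measured of 22 listed, 9 rose and 5 fell in A/J, 3 rose and 2 fell in C57BL/6J, and 9 rose and 2 fell in C3H/HeJ, with list medians of 0.35, 0.11 and 0.37. Beside these stand 15.1%, 2.99% and 12.8% of all genes called higher, and 8.95%, 2.36% and 10.6% called lower. The 2 falls in C3H/HeJ were near that strain's share. Lox, the lysyl oxidase that cross-links elastin and collagen, rose in every strain, by 1.91 ± 0.29 in A/J (3.77-fold, adjusted p = 2.85e-04), 1.62 ± 0.29 in C57BL/6J (3.08-fold, adjusted p = 0.00563) and 1.52 ± 0.29 in C3H/HeJ (2.86-fold, adjusted p = 0.00177). In C57BL/6J Lox was 1.07 and not called without the 3 arrays high in squamous genes (adjusted p = 0.365). Ltbp2, a microfibril protein, rose by 1.39 ± 0.15 in A/J, by 0.98 ± 0.15 in C57BL/6J and by 0.75 ± 0.15 in C3H/HeJ, and Lgals3bp, a secreted scavenger receptor domain protein, by 1.21 ± 0.15, 1.46 ± 0.15 and 0.97 ± 0.15. Fibulin 2, Fbln2, rose by 1.61 ± 0.30 in A/J and 1.25 ± 0.30 in C3H/HeJ. Emilin2, a glycoprotein of the elastic fibre surface, rose by 0.36 ± 0.12 in A/J (adjusted p = 0.0398) and by 1.65 ± 0.12 in C3H/HeJ (adjusted p = 7.71e-07). It fell in C57BL/6J (-0.61 ± 0.12, adjusted p = 0.00955), a call lost without scaling and after median centring. Adamtsl2, which binds microfibrils, rose by 0.89 ± 0.16 in A/J and 1.16 ± 0.16 in C3H/HeJ. Ltbp4, needed for elastic fibre assembly in the lung, fell in all strains, at -0.59 ± 0.18 in A/J (adjusted p = 0.0256), -0.67 ± 0.18 in C57BL/6J (adjusted p = 0.0402) and -0.99 ± 0.18 in C3H/HeJ (adjusted p = 9.66e-04). Without scaling 9 genes of the list rose in A/J, 2 rose in C57BL/6J and 13 rose in C3H/HeJ, and 0 fell in any strain. After median centring 13, 3 and 12 rose and 0, 1 and 1 fell. Ltbp4 without scaling was at 0.00 (A/J), -0.60 (C57BL/6J) and -0.26 (C3H/HeJ), none of them called. Of all C57BL/6J calls in the 5 lists described here, Lgals3bp alone was called without the 3 arrays high in squamous genes (1.08, adjusted p = 0.0402), a fit with 1 control array in that strain.

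Receptors for these proteins were as mixed. Of 19 measured, 7 rose and 4 fell in A/J, 1 rose and 1 fell in C57BL/6J, and 7 rose and 2 fell in C3H/HeJ, with list medians of 0.18, 0.09 and 0.31. Among all genes 15.1%, 2.99% and 12.8% were called higher and 8.95%, 2.36% and 10.6% lower. The 2 falls in C3H/HeJ were thus near the share of all genes. Itgb6, the epithelial integrin chain that binds fibronectin, tenascin C and latent TGF-beta, fell in A/J (-1.84 ± 0.24, adjusted p = 6.07e-05), and so did Sdc4, a syndecan that assists fibronectin adhesion (-1.75 ± 0.21, adjusted p = 4.01e-05). Cd36, a thrombospondin and fatty acid receptor, fell in A/J (-1.49 ± 0.11, adjusted p = 4.58e-07) and in C3H/HeJ (-1.08 ± 0.11, adjusted p = 9.08e-06). The 3 A/J decreases were also called without scaling and after median centring, whereas Cd36 in C3H/HeJ was called after median centring and not without scaling (-0.42, adjusted p = 0.316). Itga5, the fibronectin receptor chain, rose by 0.87 ± 0.21 in A/J, and Itga9, a tenascin C receptor chain, by 0.76 ± 0.10 in A/J and 0.64 ± 0.10 in C3H/HeJ. Itgb8, which activates latent TGF-beta, rose by 0.99 ± 0.15 in C3H/HeJ. It averaged 5.49 in irradiated C3H/HeJ arrays and under 4.98, the overall median used by the filter, in every other group. A gene this dim elsewhere passes the filter mainly through the group where it is high, so the filter favours this rise. Itga8 fell in C3H/HeJ (-0.73 ± 0.15, adjusted p = 0.00286) and was not called without scaling (adjusted p = 0.995). In C57BL/6J Lrp1, an endocytic receptor, rose by 0.53 ± 0.12 and Stab1, a scavenger receptor that takes up Sparc, fell (-0.46 ± 0.11), and both calls were lost under the other scalings. In A/J and C3H/HeJ both rose, Lrp1 by 0.70 ± 0.12 and 0.47 ± 0.12 and Stab1 by 0.64 ± 0.11 and 0.48 ± 0.11. Without scaling 9 receptors rose and 3 fell in A/J, and 11 rose and 0 fell in C3H/HeJ. All genes had a median log2 fold change of 0.56 and 0.61 in that fit, to which the shares above do not apply.

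Among partners and processors of versican and hyaluronan the genes called were all higher, while genes not called went in both directions. Of 13 measured genes of 22 listed, 4 rose in A/J, 2 rose in C57BL/6J and 8 rose in C3H/HeJ, none fell in any strain, and the list medians were 0.64, 0.07 and 0.73. Of all genes 15.1%, 2.99% and 12.8% were called higher and 8.95%, 2.36% and 10.6% lower. In C3H/HeJ Adamts4, a protease that cuts versican, rose by 2.66 ± 0.33 (6.32-fold, adjusted p = 4.74e-05), Ptx3, a pentraxin of the hyaluronan matrix, by 1.81 ± 0.24 (3.51-fold), Tnfaip6, which transfers heavy chains onto hyaluronan, by 1.30 ± 0.22 (2.46-fold), and Itih4 by 1.03 ± 0.24. Adamts4, Ptx3 and Tnfaip6 averaged 6.33, 6.24 and 5.28 in irradiated C3H/HeJ arrays. Their means in every other group were under 4.98, the overall median used by the filter. Genes this dim elsewhere pass the filter mainly through the group where they are high, so the filter favours rises in this list. In A/J Adamts1 rose by 1.23 ± 0.11 (2.34-fold, adjusted p = 2.76e-06), Itih4 by 0.75 ± 0.24, Adamts15 by 0.74 ± 0.16 and Tnfaip6 by 0.64 ± 0.22. Without the 3 arrays high in squamous genes Itih4 in A/J was 0.49 and not called (adjusted p = 0.177), and without scaling 8 genes of the list rose in A/J and 9 in C3H/HeJ. In C57BL/6J Adamts15 rose by 0.97 ± 0.16 (adjusted p = 0.00383) and Itih4 by 0.91 ± 0.24 (adjusted p = 0.0401), and neither was called without scaling or without the 3 arrays high in squamous genes.

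Genes of TGF-beta and YAP signalling, pathways known to induce several members, did not share a direction, and the balance of their calls changed with the scaling. Of 14 measured of 15 listed, 1 rose and 3 fell in A/J, 0 rose and 1 fell in C57BL/6J, and 1 rose and 5 fell in C3H/HeJ, with list medians of -0.16, 0.07 and -0.15. Shares of all genes were 15.1%, 2.99% and 12.8% higher and 8.95%, 2.36% and 10.6% lower. With quantile-normalized signals the rises in this list were below these shares in every strain. The receptor Tgfbr2 rose by 0.72 ± 0.09 in A/J (adjusted p = 5.18e-05) and 0.70 ± 0.09 in C3H/HeJ (adjusted p = 7.39e-05), also under both other scalings. Ankrd1, a muscle and YAP target gene, fell in every strain, at -0.85 ± 0.15 (A/J), -0.71 ± 0.15 (C57BL/6J) and -0.63 ± 0.15 (C3H/HeJ). Without scaling it was not called in any strain, at -0.27, -0.62 and 0.09. Amotl2 fell by quantile-normalized signals in A/J (-0.45 ± 0.11) and C3H/HeJ (-0.53 ± 0.11), Smad7 in A/J (-0.43 ± 0.11) and Yap1 in C3H/HeJ (-0.46 ± 0.14), and each of these turned positive and uncalled without scaling. Without scaling 2 genes of the list rose in A/J, 0 rose in C57BL/6J and 3 rose in C3H/HeJ while 0 fell. After median centring 4, 0 and 4 rose and 1, 1 and 0 fell. The shares of all genes above do not apply to these counts. In A/J and C3H/HeJ all genes had a median log2 fold change of 0.56 and 0.61 without scaling, and 0.33 and 0.24 after median centring. Without irradiated C3H/HeJ array 3 the count that fell in that strain was 2. Tgfb1 itself was not called in any strain, at -0.31 (A/J), 0.32 (C57BL/6J) and 0.50 (C3H/HeJ).

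**Figure D5:**
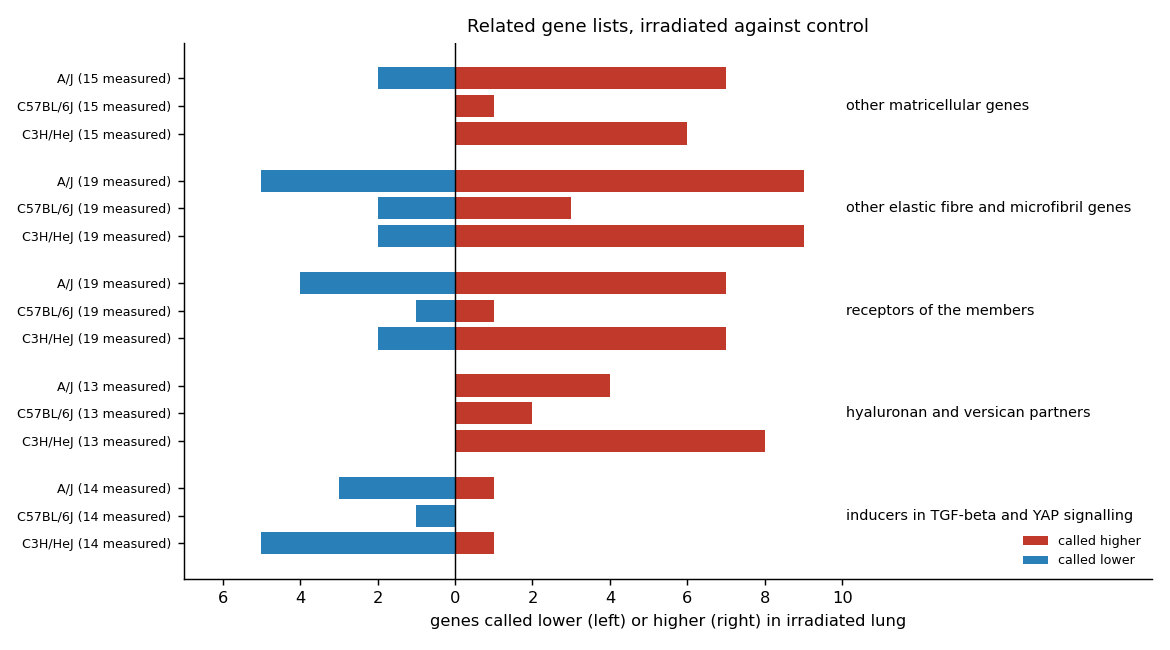
Number of genes called lower (left of 0) and higher (right of 0) in irradiated lung for the 5 lists of related genes, by strain, with the number of measured genes in brackets. Higher calls outnumber lower ones in A/J and C3H/HeJ for 4 of the lists, and lower ones outnumber higher ones in the TGF-beta and YAP list. Among all genes 15.1% were called higher and 8.95% lower in A/J, and 12.8% and 10.6% in C3H/HeJ.

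Markers of the cell types that make or carry these proteins moved too. For comparison, 15.1% (A/J), 2.99% (C57BL/6J) and 12.8% (C3H/HeJ) of all genes were called higher, and 8.95%, 2.36% and 10.6% lower. Of 8 fibroblast genes 3 rose in A/J, 1 rose in C57BL/6J and 3 rose in C3H/HeJ, while 1 fell in C3H/HeJ, Tcf21 (-0.80 ± 0.19). Those that rose were collagens, led by Col1a1 at 2.23 ± 0.23 in A/J and 1.76 ± 0.23 in C3H/HeJ. The list's mean log2 signal was 9.34 to 9.42 in irradiated A/J arrays against 8.82 to 8.90 in controls, 9.11 to 9.39 against 8.98 to 9.24 in C57BL/6J, and 9.53 to 9.67 against 9.18 to 9.19 in C3H/HeJ. The fibroblast genes Pdgfra, Pdgfrb, Dcn and Lum were not called in any strain. Of 7 macrophage genes 5 rose in A/J, 0 rose in C57BL/6J and 5 rose in C3H/HeJ, among them Cd68 at 1.15 ± 0.32 in A/J and 1.35 ± 0.32 in C3H/HeJ. Their mean was 8.78 to 9.78 in irradiated A/J arrays against 8.65 to 8.72 in controls, 8.23 to 9.27 against 8.39 to 8.48 in C57BL/6J, and 9.31 to 9.74 against 8.58 to 8.71 in C3H/HeJ.

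Of 7 smooth muscle and myofibroblast genes 2 rose in A/J, 2 fell in C57BL/6J and none was called in C3H/HeJ. Those called were Des (0.87 ± 0.20) and Tagln (0.71 ± 0.18) in A/J, and Acta2 (-0.52 ± 0.14) and Myl9 (-0.50 ± 0.13) in C57BL/6J. With 15.1%, 2.99% and 12.8% of all genes called higher and 8.95%, 2.36% and 10.6% lower, 1 call in lists this short says little. Of 7 endothelial genes 1 rose and 3 fell in A/J, 2 fell in C57BL/6J and 5 fell in C3H/HeJ, with Tek at -2.14 ± 0.18, -1.68 ± 0.18 and -2.74 ± 0.18. Of 5 platelet genes, named here because platelets store thrombospondin 1, 1 rose and 1 fell in A/J, 2 fell in C57BL/6J and 1 rose in C3H/HeJ. Their mean was 5.99 to 6.97 in irradiated A/J arrays against 6.87 to 7.13 in controls, 7.26 to 8.11 against 8.43 to 8.67 in C57BL/6J, and 6.76 to 7.0 against 6.84 to 7.71 in C3H/HeJ. Of 5 mesothelial genes 1 rose in A/J, none was called in C57BL/6J, and 1 rose and 1 fell in C3H/HeJ. Of 6 alveolar epithelium genes 1 fell in A/J, of 8 kept squamous epithelium genes 1 fell in C57BL/6J, and none of 8 kept skeletal muscle genes was called in any strain. The mean of the squamous genes was 8.10 and 8.12 in C57BL/6J control arrays 1 and 3, against 4.43 in control array 2. The part of those high control arrays in the squamous fall was not tested. No gene of the cartilage or liver lists passed the filter. The part of any of these cell types in the members' values was not tested.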

How the data were processed

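Lung RNA of 18 samples was hybridised to single-colour oligonucleotide arrays. The deposited table holds linear signal intensities, 1 per probe set and array, computed by the authors with MAS5, per the submitters' processing notes, which give no version. A scaling target was not given in the sources used here, and the arrays' trimmed means differ. Genes were named from the platform annotation: of 45101 probe sets 35890 have an entry, of which 34958 name 1 gene and 932 several. Names from several genes were not used.

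Intensities plus 7, near their 25th percentile of 6.7, were taken to log2 and quantile-normalized. Probe sets above the overall median of 4.98 in at least 3 arrays were kept (25746), and the brightest by mean represented its gene (12412 genes). limma 3.58.1 in R 4.3.3 fitted 6 group means over all 18 arrays (12 residual degrees of freedom), with moderated two-sided tests and Benjamini-Hochberg adjustment over all genes, or over all kept probe sets where probe sets are compared. A call is an adjusted p under 0.05, errors of fold changes are SE, intervals are 95%, and 3 arrays per group limit the precision. The script was tested on simulated data. Every member is named, and from each list up to 4 called genes with the largest change in a strain. Tgfb1, Pdgfra, Pdgfrb, Dcn and Lum were named after their values were seen. The members and lists were chosen with earlier results of these data known. Same-numbered arrays of irradiated and control mice deviated with correlations of -0.0841 to 0.0956 over 9 pairs, so the numbers do not pair samples. Alternatives covered scaling, pseudocount, filter, probe-set choice, groups in the fit, a trended prior, a replicate block and single arrays left out. Leaving out the 3 squamous arrays or C3H/HeJ irradiated array 3, and list counts under other scalings, were chosen after seeing the data.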

Additional observations from a re-analysis of the deposited data

Results flagged for a closer look

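The irradiation effect on Sparc differed between strains in a test of the difference itself. The effect was 0.21 ± 0.13 in C57BL/6J and 0.99 ± 0.13 in A/J on the log2 scale, and their difference was -0.78 ± 0.18 (SE, interval -1.15 to -0.40, adjusted p = 0.0193 in limma). Irradiated C57BL/6J arrays had 11.71, 11.62 and 11.35, against 11.33, 11.34 and 11.37 in their controls, and irradiated A/J arrays had 12.41, 12.29 and 12.22, against 11.31, 11.31 and 11.33 in theirs. The 5′ to 3′ actin ratio averaged 0.497 ± 0.074 in irradiated A/J lung and 0.735 ± 0.006 in A/J controls (SD, n = 3 each), and its part in this difference was not tested. The adjusted p ranged from 0.00521 to 0.622 over 24 alternatives and passed the threshold in 19.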

How the results depend on the processing

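Tnc, Thbs1, Fn1, Ccn2 and Sparc in A/J, and Tnc, Thbs1, Fn1, Ccn2 and Vcan in C3H/HeJ, kept direction and call in all 18 alternatives. Calls were lost for Postn in A/J in 10, Vcan in A/J in 6, Eln in C3H/HeJ in 11, Fn1 in C57BL/6J in 4 and Sparc in C3H/HeJ in 2. The count of members called, 7 in A/J and 7 in C3H/HeJ, ranged from 5 to 8 in each. In C57BL/6J, with 1, it was 2 with a pseudocount of 32, 3 with a trended prior, 0 with the mean of probe sets, with the compared groups alone or without the 3 squamous arrays, and 1 to 2 with 1 array left out. For C57BL/6J minus A/J, with 1, it was 2 without scaling, with median centring, with a pseudocount of 32, with every probe set tested and with a trended prior, 0 with the mean of probe sets and without the squamous arrays, and 0 to 4 with 1 array left out. For C57BL/6J minus C3H/HeJ, with 0, it was 3 without scaling and with a pseudocount of 32, 2 with a trended prior, 1 with median centring, the mean of probe sets or the compared groups alone, and 0 to 4 with 1 array left out. Among controls, C57BL/6J against A/J, with 1, gave 3 with the compared groups alone and 0 without the squamous arrays. C57BL/6J against C3H/HeJ, with 0, gave 1 with a pseudocount of 1 or 32, the mean of probe sets or every probe set, and 2 with the compared groups alone or a trended prior. Both C3H/HeJ minus A/J counts stayed at 0. Shares of all genes called under each alternative are not given beside these counts. With the replicate number as a block, Postn in A/J (adjusted p = 0.0813) and the Sparc difference (-0.78, adjusted p = 0.0665, leaving 0 members called for C57BL/6J minus A/J) lost their calls and no other member's call changed. Signs turned, in C57BL/6J alone, for Postn (-0.12 to 0.20 with 1 array left out), Eln (-0.0718 to 1.42) and Vcan (-0.22 to 0.13, and 0.10 without the squamous arrays). The causes were not tested. Dim signals limit Thbs2 and Vcan.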
